A study of Mus musculus with 9 samples.

Results

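The isthmic organizer (IsO) genes examined here are 10 genes of the midbrain-hindbrain boundary, *En1*, *En2*, *Pax2*, *Pax5*, *Pax8*, *Gbx2*, *Fgf8*, *Fgf17*, *Fgf18* and *Spry1*, taken by symbol out of 51912 genes in the expression table. All 10 were present in the table, and 7 of them had a mean normalized count of at least 5 and were tested for a difference between genotypes (all but *Pax2*, *Fgf8* and *Fgf17*). RNA was sequenced from midbrains dissected from C57Bl/6 mouse embryos at E14.5 (embryonic day), with 2 midbrains pooled in each of 9 libraries. The libraries comprised 3 labelled *Nkx2.9*+/+ (wild type), 3 labelled *Nkx2.9*LacZ/+ (heterozygous) and 3 labelled *Nkx2.9*LacZ/LacZ (homozygous mutant), and in the mutant allele the first exon of the homeobox gene *Nkx2.9* is replaced by LacZ, in every cell of the embryo. Libraries are named by their column, 1 to 3 for *Nkx2.9*LacZ/LacZ, 4 to 6 for *Nkx2.9*LacZ/+ and 7 to 9 for *Nkx2.9*+/+. The labels name no treatment.

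The IsO is a signaling center at the border between midbrain and hindbrain. It forms where the midbrain factor Otx2 meets the hindbrain factor Gbx2, and the cells there secrete Fgf8, which acts on both sides of the border. The engrailed factors En1 and En2 and the paired-box factors Pax2, Pax5 and Pax8 are expressed across this border region and maintain it together with Fgf8 and Wnt1, while Sprouty proteins such as Spry1 are induced by FGF signaling and restrain it. *En1* and *En2* are also expressed in dopaminergic neurons of the midbrain, and *Pax5*, *Pax8* and *Gbx2* in other neuron types.

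Reads counted on genes ranged from 1692963 (column 7) to 5942192 (column 8) per library, and column 4 was the other shallow library with 2584074. The targeted gene (*Nkx2-9*) gave 4, 6 and 3 reads in columns 1 to 3, 0, 7 and 4 in columns 4 to 6 and 0, 2 and 2 in columns 7 to 9. These reads did not fall where the labels place the loss of the gene, so every direction below is that of the column labels. Whether the labels of the wild-type and homozygous columns were exchanged cannot be settled from these values, and an exchange would turn the sign of every difference between the 2 genotypes, those of *En1*, *En2*, *Pax7* and *Tph2* included. It would also make each comparison of heterozygous with wild-type libraries one with homozygous libraries, and the reverse. Exons outside the replaced one may still be counted. *Xist*, an RNA of the inactive X chromosome that male cells lack, was at 2579.6 to 5182 normalized counts in columns 1, 2, 3, 6, 7 and 8. It was at most 79.9 in columns 4, 5 and 9. The Y chromosome genes *Ddx3y*, *Eif2s3y*, *Kdm5d* and *Uty* had at most 2 reads each in columns 1, 2, 3, 6 and 7. In columns 4, 5, 8 and 9 they had at least 50 reads each. By these genes all 3 *Nkx2.9*LacZ/LacZ libraries were of female tissue, and column 8 held tissue of both sexes. The midbrain markers were present, with a summed level of 8 genes between 3202 and 4271 normalized counts per library, and of the 6 genes of the cerebellar list *Atoh1* and *Ptf1a* had 0 reads in all 9 libraries. The other 4 (*Barhl1*, *Pax6*, *Zic1* and *Lhx9*), which further brain areas also express, summed to between 1234 and 1723 normalized counts.

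Levels differed widely between the boundary genes. Per kb of exon, *Pax5* (98.0 normalized counts per kb), *En1* (90.7) and *En2* (82.4) had the highest mean levels over the 9 libraries, and the ranges of these genes overlapped. *Spry1* followed at 20.9 normalized counts per kb, *Gbx2* at 12.6, *Fgf18* at 7.34 and *Pax8* at 6.41. *Fgf17* had 2.53 normalized counts per kb, *Fgf8* 0.658 and *Pax2* 0.477. The ligand of the organizer itself, *Fgf8*, was thus barely sampled at E14.5 with 8 reads over all 9 libraries, and *Pax2*, with 29 reads, was far below *Pax5*, its paralog.

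**Figure D1:**
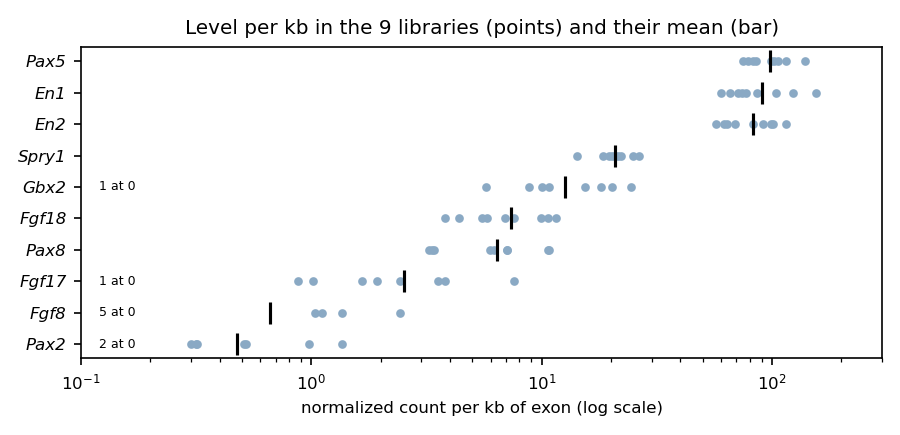
Normalized count per kb of exon (log axis) of the 10 boundary genes, with a point for each library with a read, a bar for the mean of all 9 and the number of libraries at 0 on the left. *Pax5*, *En1* and *En2* lie together at the top and *Fgf8* and *Pax2* at the bottom.

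Reads on some of these genes could come from a neighbor. Transcripts annotated on the opposite strand share exon bases with *Gbx2* (946 bases with *D130058E05Rik*), *Spry1* (710 bases with *Gm42922*), *Pax5* (636 bases with *5730488B01Rik*) and *Pax8* (367 bases with *Gm13415*). Whether strand was used in the counting is not given in the sources used here, so reads in the shared stretch cannot be assigned to either partner with certainty. *En1* shared no bases with another gene, and *En2* overlapped *Gm43610* with 0 shared exon bases.

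The stretch upstream of the start is shown for *En1*, the one gene of the 7 with an unadjusted p under 0.05 between homozygous and wild-type midbrain (none passed adjustment), for *Pax8*, whose fold change there was the largest of the 7 in size, whichever its sign, and for *Spry1*, whose values did not overlap between these genotypes. RefSeq promoter sequences (GRCm38.p6) were found for 7 of the 10 genes. Capitals mark CCAAT or its reverse complement ATTGG and the palindrome CACGTG (E-box), which do not overlap each other here.
*En1*, chr1:120602237-120602417, plus strand: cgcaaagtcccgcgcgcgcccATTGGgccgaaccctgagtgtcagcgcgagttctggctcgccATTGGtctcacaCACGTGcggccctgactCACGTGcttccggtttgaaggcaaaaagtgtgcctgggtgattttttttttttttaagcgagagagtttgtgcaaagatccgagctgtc
*Pax8*, chr2:24475600-24475849, minus strand: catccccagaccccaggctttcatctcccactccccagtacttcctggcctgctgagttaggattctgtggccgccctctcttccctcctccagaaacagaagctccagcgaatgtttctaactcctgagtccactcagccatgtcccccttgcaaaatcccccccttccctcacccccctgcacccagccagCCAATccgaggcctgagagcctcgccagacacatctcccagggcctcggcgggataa
*Spry1*, chr3:37639697-37639946, plus strand: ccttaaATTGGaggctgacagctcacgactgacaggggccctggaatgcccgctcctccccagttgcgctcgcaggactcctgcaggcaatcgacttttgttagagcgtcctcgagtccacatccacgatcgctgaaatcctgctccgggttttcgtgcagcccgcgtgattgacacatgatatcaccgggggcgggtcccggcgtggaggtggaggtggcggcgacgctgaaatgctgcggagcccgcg

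The window of *En1* had 181 bases, since it stops at the GENCODE start of the gene, ahead of the RefSeq start that the promoter table uses. It held CCAAT 2 times and CACGTG 2 times, and those of *Pax8* and *Spry1* held CCAAT 1 time each. Searched on both strands, CCAAT was found in 33.8% and CACGTG in 6.02% of 32851 promoter windows of 250 bases, and in 25.2% and 3.72% of the first 181 bases of these windows. The core CAAGTG bound by factors of the NK-2 class, to which Nkx2.9 belongs, was in 11.6% of the windows of 250 bases (9.01% at 181 bases), and the homeodomain core TAATTA in 4.84% (3.87%). Neither core occurred in these windows of *En1*, *Pax8* and *Spry1*, which says only that these letters are not in these stretches.

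The engrailed genes were compared first. *En1* (chromosome 1, 120602418-120607992, GRCm38) had normalized counts of 157, 188 and 194 in *Nkx2.9*LacZ/LacZ midbrain, 407, 202 and 172 in *Nkx2.9*LacZ/+ and 274, 225 and 322 in *Nkx2.9*+/+ midbrain. All *Nkx2.9*LacZ/LacZ libraries were thus below all *Nkx2.9*+/+ libraries, while the *Nkx2.9*LacZ/+ libraries spanned both, with column 4 the highest of all 9. The fold change of *Nkx2.9*LacZ/LacZ over *Nkx2.9*+/+ was -0.60 on the log2(normalized count + 1) scale (standard error [SE] 0.25, 95% confidence interval [CI] -1.12 to -0.07), a ratio of 0.661. The unadjusted limma p was 0.0277 beside an exact permutation p of 0.1 (two-sided), the smallest that 3 libraries against 3 allow. The difference did not pass after Benjamini-Hochberg adjustment over all 16993 genes tested, with an adjusted limma p of 1.00.

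This call depended on single libraries. The unadjusted limma p of *En1* was 0.0974 without column 1, 0.0525 without column 7 and 0.111 without column 9, with log2 fold changes of -0.50, -0.59 and -0.47, and it was 0.111 with log2 *Xist* as a covariate (log2 fold change -0.44). It was lower, 0.00112, with only the libraries of the 2 genotypes and 0.000739 without column 4. After upper-quartile scaling it was 0.0888, but this scaling moved the median log2 fold change of all genes from 0.01 to 0.14 and *En1* by a similar amount, from -0.60 to -0.47, so the lost call does not show a change of *En1* relative to other genes. The genes with an unadjusted p under 0.05 went from 234 higher and 207 lower to 273 higher and 76 lower.

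*En2* (chromosome 5, 28165694-28172166) had normalized counts of 227, 293 and 244 in *Nkx2.9*LacZ/LacZ midbrain, 407, 219 and 202 in *Nkx2.9*LacZ/+ and 352, 323 and 358 in *Nkx2.9*+/+ midbrain. Again the *Nkx2.9*LacZ/LacZ values lay below the *Nkx2.9*+/+ values without overlap, and column 4 was the highest of all. The difference between *Nkx2.9*LacZ/LacZ and *Nkx2.9*+/+ was -0.44 on the log2 scale (SE 0.21, CI -0.88 to 0.00, limma p = 0.0502, exact permutation p = 0.1, adjusted limma p = 1.00), and it was therefore not called. On the recovered reads it had an unadjusted p of 0.0446 in edgeR and 0.0405 in DESeq2, both on the other side of the threshold, and an adjusted p of 1.00 in both. *En1* and *En2* had been picked out from these same libraries by the study, so their low p-values are not independent evidence, and their direction rests on the column labels.

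**Figure D2:**
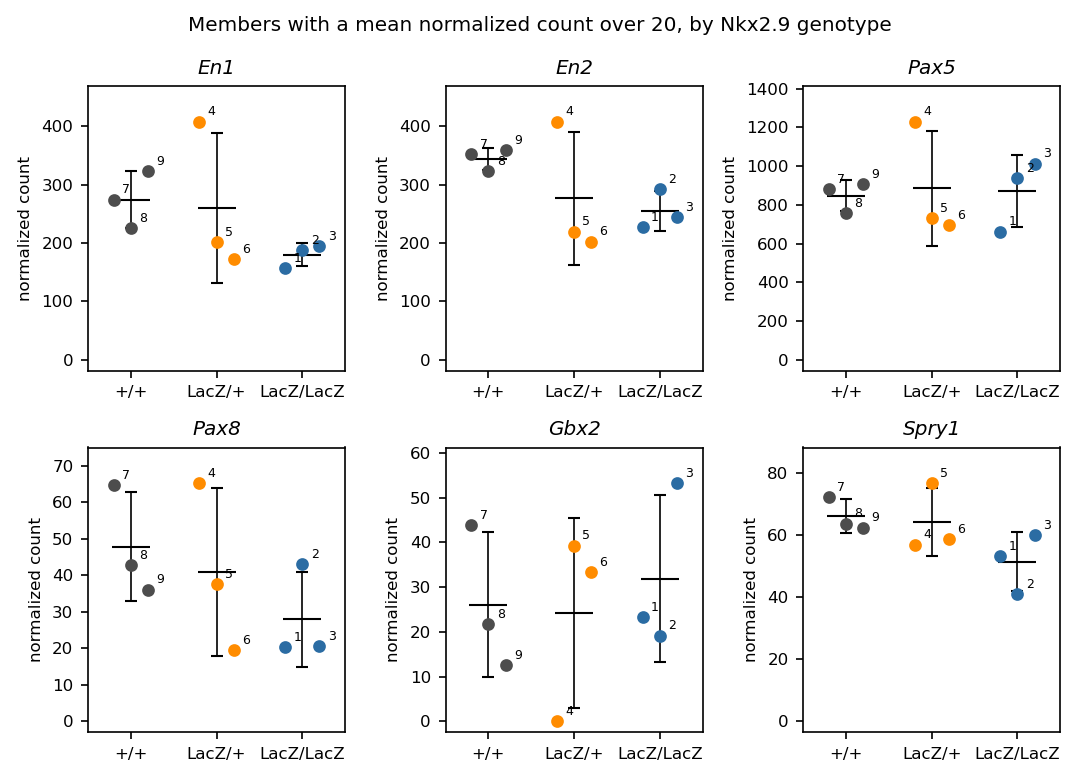
Normalized count of 6 boundary genes in each library, marked with its column number, by *Nkx2.9* genotype, with mean ± SD of 3 libraries. The LacZ/LacZ points of *En1*, *En2* and *Spry1* lie below the +/+ points, and column 4 is the highest for *En1*, *En2*, *Pax5* and *Pax8* and at 0 for *Gbx2*.

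Among the paired-box genes, *Pax5* showed no detectable difference. It had 662, 937 and 1013 normalized counts in *Nkx2.9*LacZ/LacZ, 1229, 731 and 696 in *Nkx2.9*LacZ/+ and 879, 757 and 906 in *Nkx2.9*+/+ midbrain. The *Nkx2.9*LacZ/LacZ values lay on both sides of the *Nkx2.9*+/+ values, and the log2 fold change was 0.02 (CI -0.40 to 0.44, limma p = 0.922, exact permutation p = 0.9).

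*Pax8*, the least abundant of the tested paired-box genes, had 20.3, 43.0 and 20.6 normalized counts in *Nkx2.9*LacZ/LacZ midbrain, 65.2, 37.6 and 19.6 in *Nkx2.9*LacZ/+ and 64.7, 42.8 and 36.1 in *Nkx2.9*+/+ midbrain. Column 2 reached the *Nkx2.9*+/+ range and the other *Nkx2.9*LacZ/LacZ libraries were below it. The log2 fold change was -0.80 (SE 0.40, CI -1.65 to 0.05, limma p = 0.0644, exact permutation p = 0.3, adjusted limma p = 1.00). *Pax2* gave 7, 3 and 2 reads in *Nkx2.9*LacZ/LacZ, 1, 2 and 0 in *Nkx2.9*LacZ/+ and 0, 4 and 10 in *Nkx2.9*+/+ libraries, and at this depth no difference was detectable between *Nkx2.9*LacZ/LacZ and *Nkx2.9*+/+ (log2 fold change 0.33, CI -1.33 to 1.99, in the fit without a minimum count).

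*Gbx2*, which marks the hindbrain side of the organizer early and later also thalamic and other neurons, varied more between libraries than between genotypes. It had 23.3, 19.2 and 53.2 normalized counts in *Nkx2.9*LacZ/LacZ midbrain, 0, 39.3 and 33.4 in *Nkx2.9*LacZ/+ and 44.0, 21.8 and 12.5 in *Nkx2.9*+/+ midbrain. The genotypes overlapped, and the log2 fold change of *Nkx2.9*LacZ/LacZ over *Nkx2.9*+/+ was 0.32 with a CI of -1.79 to 2.42 (limma p = 0.754, exact permutation p = 0.6). Against the heterozygous libraries, 1 of them at 0, the fitted values depend on the pseudocount and were -1.11 for heterozygous over wild type (CI -3.21 to 1.00) and 1.42 for homozygous over heterozygous (CI -0.69 to 3.53).

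The library of column 4 had 0 reads of *Gbx2*, which allows up to 3 reads or 4.89 normalized counts, counting error only, and every other library had at least 17 reads. *Dlx1*, a forebrain and GABAergic gene of the marker lists that was chosen after its values were seen, also had 0 reads in column 4 and 58.0, 11.9 and 64.4 normalized counts in *Nkx2.9*LacZ/LacZ, 61.5 and 69.3 in the other *Nkx2.9*LacZ/+ and 51.7, 44.9 and 4.42 in *Nkx2.9*+/+ libraries. Of the other genes of the forebrain list, *Dlx2* was at 0 in columns 2 and 4, while others had reads in column 4, with *Six3* at 161 normalized counts (mean of 9 libraries 144), *Emx2* at 89.6 (mean 91.5), *Barhl2* at 140 (mean 159) and *Lhx2*, lowest of its 9 values there, at 197 (mean 282). The part that dissection has in these values was not tested.

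**Figure D3:**
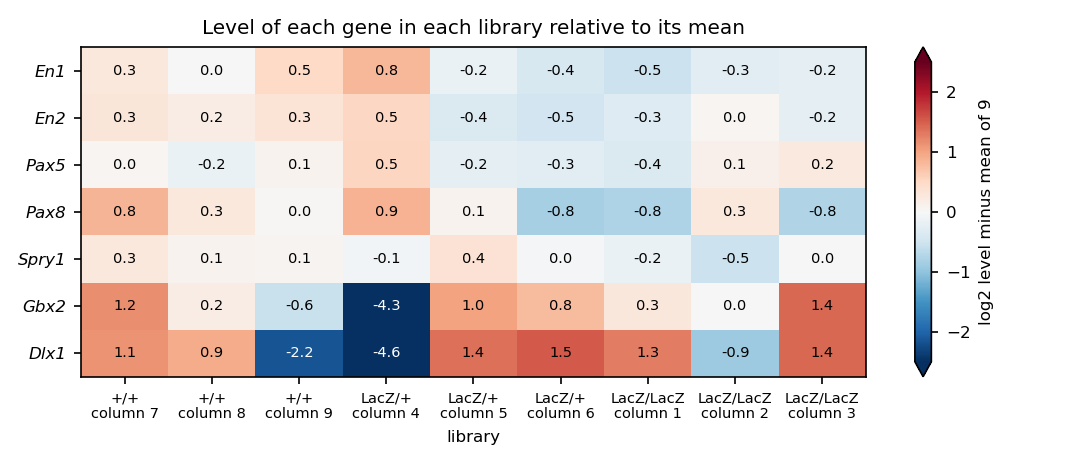
Level of 6 boundary genes and *Dlx1* in each library as log2(normalized count + 1) minus the mean of 9 libraries (color, cut at 2.5 in both directions, with the value printed). Column 4 holds the highest values of *En1*, *En2*, *Pax5* and *Pax8* and the lowest of *Gbx2* and *Dlx1*.

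The FGF ligands had few reads. *Fgf8* gave 2, 2 and 0 reads in *Nkx2.9*LacZ/LacZ, 2, 0 and 0 in *Nkx2.9*LacZ/+ and 0, 2 and 0 in *Nkx2.9*+/+ libraries, too few for a fold change. *Fgf17*, a ligand of the same subfamily, gave 17, 7 and 2 reads in *Nkx2.9*LacZ/LacZ, 2, 7 and 5 in *Nkx2.9*LacZ/+ and 0, 4 and 2 in *Nkx2.9*+/+ libraries. Most of its reads in *Nkx2.9*LacZ/LacZ midbrain came from column 1, and the genotypes overlapped in reads.

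Without a minimum count, the log2 fold change of *Fgf17* was 1.63 for *Nkx2.9*LacZ/LacZ over *Nkx2.9*+/+ (CI -0.01 to 3.27, limma p = 0.0516, exact permutation p = 0.2, adjusted limma p = 0.963). *Fgf18*, the third ligand of this subfamily, gave 6, 9 and 16 reads in *Nkx2.9*LacZ/LacZ, 4, 8 and 11 in *Nkx2.9*LacZ/+ and 2, 18 and 16 in *Nkx2.9*+/+ libraries. Column 7, with its 2 reads, was the shallowest library, and *Fgf18* did not differ detectably (log2 fold change -0.17, CI -1.30 to 0.96, limma p = 0.750, exact permutation p = 0.8).

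**Figure D4:**
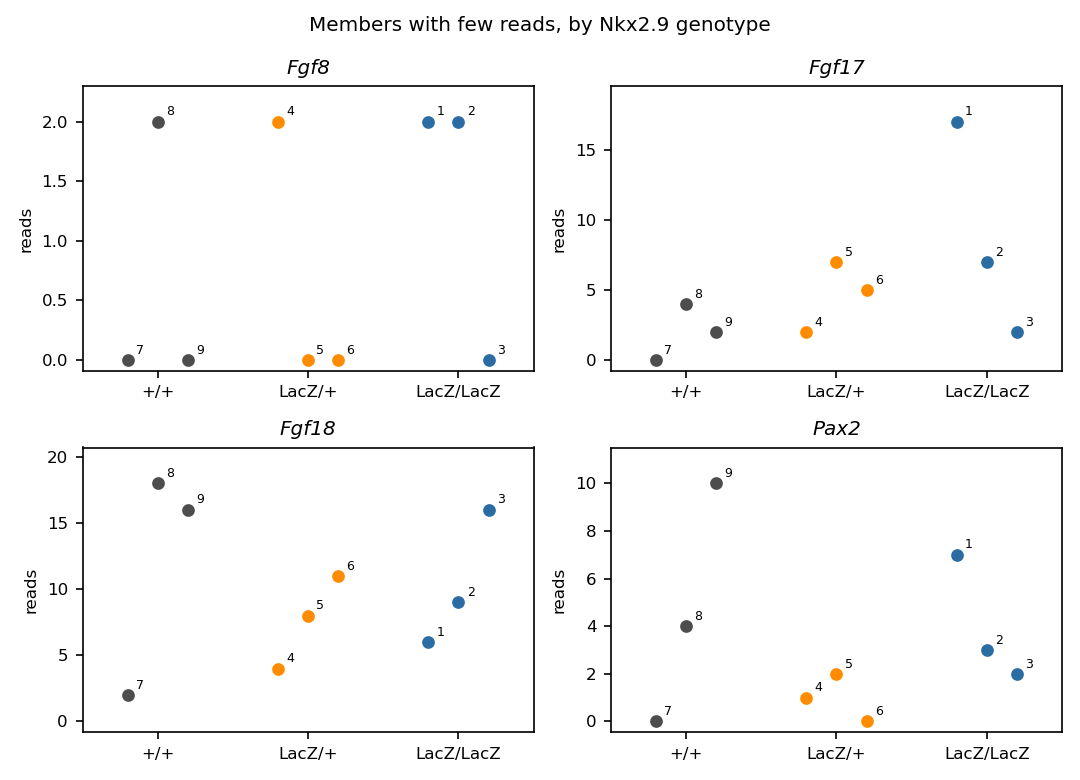
Reads of *Fgf8*, *Fgf17*, *Fgf18* and *Pax2* in each library, marked with its column number, by *Nkx2.9* genotype; reads are not scaled for depth. *Fgf8* has at most 2 reads in any library, and column 1 holds the most reads of *Fgf17*.

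*Spry1*, the FGF-induced inhibitor, had 53.4, 41.2 and 60.1 normalized counts in *Nkx2.9*LacZ/LacZ midbrain, 57.0, 76.8 and 58.7 in *Nkx2.9*LacZ/+ and 72.4, 63.9 and 62.6 in *Nkx2.9*+/+ midbrain. The *Nkx2.9*LacZ/LacZ values were below the *Nkx2.9*+/+ values without overlap, but the difference did not pass the test (log2 fold change -0.37, SE 0.22, CI -0.83 to 0.09, limma p = 0.110, exact permutation p = 0.1).

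Of the 7 tested boundary genes, 1 (*En1*, lower) had an unadjusted limma p under 0.05 between *Nkx2.9*LacZ/LacZ and *Nkx2.9*+/+ midbrain, where 2.6% of all 16993 genes did, and 0 passed adjustment, where 0% of all genes did. There was no overlap between the genotypes for 3 of the 7 (*En1*, *En2* and *Spry1*, all lower), against 9.52% of all genes. The median log2 fold change of the 7 was -0.37 and that of all genes tested 0.01. Since *En1* and *En2* had been picked out by the study from these same libraries, these counts and the median are not independent evidence. In tissue with many cell types, fewer cells of a type and less RNA per cell cannot be told apart. Since all *Nkx2.9*LacZ/LacZ libraries were high in *Xist*, sex and genotype were partly confounded in this comparison and in that of homozygous with heterozygous midbrain.

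**Figure D5:**
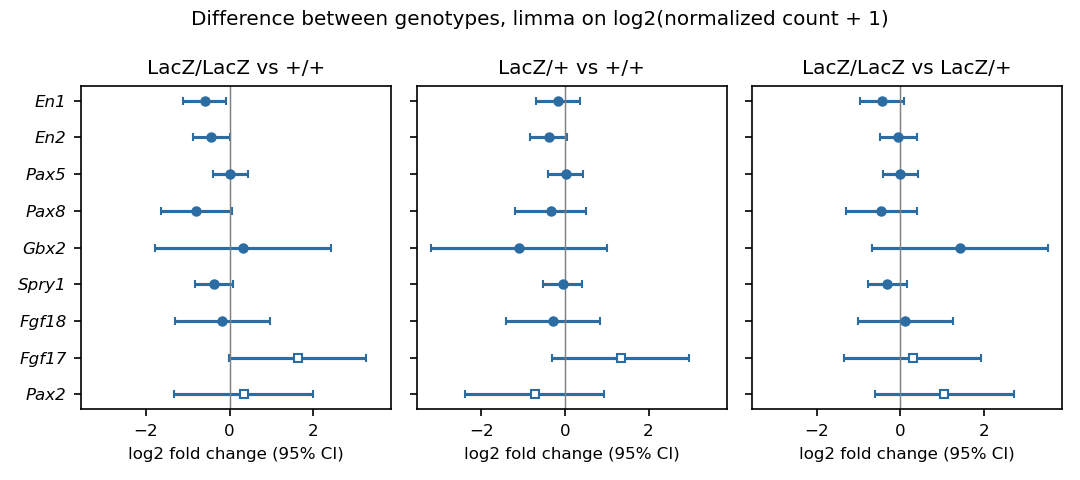
Log2 fold change with its 95% CI (limma, log2(normalized count + 1), 9 libraries in one fit) of 9 boundary genes in the 3 comparisons; open squares are genes below the minimum count, and *Fgf8* is left out. The CI of *En1* in LacZ/LacZ against +/+ is the one filled symbol whose interval does not reach 0.

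Heterozygous midbrain was compared with the same *Nkx2.9*+/+ libraries. Here 0 of the 7 tested genes had an unadjusted limma p under 0.05 (2.78% of all genes did) and 0 passed adjustment (0% of all genes), and for 0 of the 7 did the values not overlap (6.91% of all genes). The log2 fold change was -0.16 for *En1* (CI -0.69 to 0.36), -0.39 for *En2* (CI -0.83 to 0.05, limma p = 0.0812, exact permutation p = 0.4), -0.34 for *Pax8* and -0.06 for *Spry1*. The normalized counts of *Fgf17*, below the minimum count, did not overlap (its reads did) and were higher in *Nkx2.9*LacZ/+ (log2 fold change 1.33, limma p = 0.106 and exact permutation p = 0.1, in the fit without a minimum), on 14 reads against 6.

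The values of *En1*, *En2* and *Pax8* depended on columns 4 and 6. Without column 6, the log2 fold change was 0.080 for *En1*, -0.20 for *En2* and 0.092 for *Pax8*. Without column 4, the *En1* and *En2* values of *Nkx2.9*LacZ/+ midbrain lay below all *Nkx2.9*+/+ values. The log2 fold change was then -0.54 for *En1* and -0.70 for *En2*. Unadjusted, the limma p was 0.00402 and 7.05e-05, and both had an adjusted limma p of 0.844. Then 2 of the 7 genes had an unadjusted p under 0.05, where 5.49% of all genes did.

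Between homozygous and heterozygous midbrain, 0 of the 7 tested genes had an unadjusted limma p under 0.05 (2.64% of all genes), 0 passed adjustment (0% of all genes) and 0 had values without overlap (8.71% of all genes). The log2 fold change was -0.43 for *En1* (CI -0.95 to 0.09, limma p = 0.0978, exact permutation p = 0.4), -0.05 for *En2* (CI -0.50 to 0.39) and -0.31 for *Spry1* (CI -0.78 to 0.15). *En1* had an unadjusted p of 0.0356 in DESeq2 on the recovered reads and 0.0145 in limma without column 6. The *Pax2* normalized counts did not overlap (log2 fold change 1.05, limma p = 0.201, exact permutation p = 0.1, without a minimum count), on 12 reads against 3, while its reads did overlap, with 2 reads in each of columns 3 and 5.

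Across the 9 libraries, *En1* and *En2* varied together. Columns 4 and 7, the shallowest libraries, were high in both, at 407 and 274 normalized counts of *En1* and 407 and 352 of *En2*. Column 9, a deep library, was also high, at 322 and 358. The part of depth in the correlations between boundary genes was not tested. Among 15 pairs of the 6 boundary genes that averaged at least 20 normalized counts, Pearson's r was 0.886 for *En1* and *En2* (exact permutation p = 0.000747, adjusted over the 15 pairs 0.0112) and Spearman's rho 0.850 (exact permutation p = 0.00607, adjusted 0.0911). Without columns 4 and 9, the farthest from the median of *En1*, r was 0.803. Genotype differences are part of these correlations. After the mean of each genotype was removed, a step added once the pooled values were known, Pearson's r for *En1* and *En2* was 0.939 (exact permutation within genotypes, p = 0.0139, adjusted over the 15 pairs 0.104; rho 0.867, p = 0.0185, adjusted 0.139), and 0.648 without column 4. For *En1* and *Pax5* it was 0.920 (exact permutation within genotypes, p = 0.00463, adjusted 0.0694) and 0.785 without column 4. The rho of this pair was 0.833 (exact permutation within genotypes, p = 0.00463, adjusted 0.0694). With 216 permutations within genotypes, 0.00463 is the smallest p possible, and 1 pair alone at it adjusts to 0.0694. After removal of genotype means 0 of the 15 pairs passed adjustment, which therefore decides nothing about a single pair.

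*En2* and *Pax8* had an r of 0.825 (exact permutation p = 0.00981, adjusted 0.0661; rho 0.733, exact permutation p = 0.0311, adjusted 0.189) and 0.686 without columns 4 and 6. For *En1* and *Gbx2*, r was -0.728 (exact permutation p = 0.0258, adjusted 0.0661; rho -0.383, exact permutation p = 0.313, adjusted 0.469) and 0.334 without columns 4 and 9, so this relation rested on those libraries. Of the 15 pairs, 1 had an adjusted p under 0.05 for Pearson's r.

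Genes outside the set whose log2 levels most resembled *En1* over the 9 libraries, among 12490 genes that averaged at least 20 normalized counts, were *Pik3r2* (r 0.959), *Hnrnpl* (r 0.948) and *Eif2ak3* (r 0.943). Those most like *En2* were *Zfand3* (r 0.962), *Bmp1* (r 0.943) and *Crym* (r 0.943). These are the highest of many correlations and have no test. Columns 4 and 7, the shallowest libraries, held the highest values of *Pik3r2*, *Zfand3*, *Bmp1* and *Crym*, and columns 4 and 9 those of *Hnrnpl* and *Eif2ak3*. The part of depth in this likeness was not tested.

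The rest of the pathway was read from 4 lists. Between *Nkx2.9*LacZ/LacZ and *Nkx2.9*+/+ midbrain, the median log2 fold change of the FGF receptors (4 of 5 tested) was 0.06, with *Fgfr1* at 0.09 (CI -0.19 to 0.37). The FGF feedback inhibitors and ERK targets (12 of 12 tested) had a median of -0.07. *Etv5* and *Dusp6*, readouts of FGF signaling, had log2 fold changes of -0.20 and -0.13, *Spry2* -0.15 and *Etv4*, on 0 to 42 reads per library, 1.05 (CI -0.79 to 2.89). The fitted value of *Etv4* depends on the pseudocount, as column 7, the shallowest library, was at 0, and its means were close, at 13.2 normalized counts in homozygous and 12.9 in wild-type midbrain. *Spry4* had 40.6, 34.8 and 41.2 normalized counts in *Nkx2.9*LacZ/LacZ and 31.0, 31.6 and 34.6 in *Nkx2.9*+/+ midbrain, which did not overlap, with a log2 fold change of 0.25 (limma p = 0.304, exact permutation p = 0.1), opposite in sign to that of *Spry1*.

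For the other midbrain-hindbrain patterning factors (15 of 16 tested) the median log2 fold change was -0.02, with *Otx2*, which sets the midbrain side of the border, at 0.04 (CI -0.32 to 0.41) and *Lmx1b* at 0.01. *Irx3* (log2 fold change -0.57, limma p = 0.0533, exact permutation p = 0.2) and *Irx1* (-0.29, limma p = 0.218, exact permutation p = 0.1, values without overlap), patterning factors picked after their values were seen, were not called, and *Irx3* had -0.53 for heterozygous over wild type. *Wnt1*, below the minimum count, gave 4, 1 and 2 reads in *Nkx2.9*LacZ/LacZ, 0, 3 and 2 in *Nkx2.9*LacZ/+ and 6, 8 and 4 in *Nkx2.9*+/+ libraries. Without a minimum, the log2 fold change of *Wnt1* was -1.46 for *Nkx2.9*LacZ/LacZ (limma p = 0.0746, exact permutation p = 0.2) and -1.84 for *Nkx2.9*LacZ/+ over *Nkx2.9*+/+ (limma p = 0.0272, exact permutation p = 0.1, adjusted limma p = 1.00). The other FGF ligands (7 of 10 tested) had a median of 0.13 between *Nkx2.9*LacZ/LacZ and *Nkx2.9*+/+.

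Over the 38 tested genes of the 4 lists, 0 had an unadjusted limma p under 0.05 between the homozygous and wild-type libraries (2.6% of all genes), 1 between the heterozygous and wild-type libraries (2.78%) and 0 between the homozygous and heterozygous libraries (2.64%). The 1 was *Fgf11*, an intracellular FGF homolog, with 52.2, 49.5 and 71.0 normalized counts in *Nkx2.9*LacZ/+ and 114, 70.2 and 87.6 in *Nkx2.9*+/+ midbrain (log2 fold change -0.63, limma p = 0.0106, exact permutation p = 0.2, adjusted limma p = 1.00). Without column 4, 9 of the 38 had an unadjusted p under 0.05 between *Nkx2.9*LacZ/+ and *Nkx2.9*+/+, against 5.49% of all genes. This was the highest count on leaving out a library (1 to 9), and 0 of all genes passed adjustment in that fit.

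Markers of the adjoining hindbrain were read in the same comparison. Of 4 tested genes of the rostral hindbrain and serotonergic list (5 genes), 2 had an unadjusted limma p under 0.05 between *Nkx2.9*LacZ/LacZ and *Nkx2.9*+/+, *Tph2* (log2 fold change -1.75, p = 0.00155) and *Slc6a4* (log2 fold change -1.07, p = 0.0354), both lower by the column labels, with an exact permutation p of 0.1 and an adjusted limma p of 1.00, where 2.6% of all genes had such an unadjusted p. *Tph2*, like *En1*, *En2* and *Pax7*, had been picked out by the study from these libraries, so its p is not independent evidence. In reads, *Tph2* had 14, 10 and 4 in *Nkx2.9*LacZ/LacZ and 12, 24 and 46 in *Nkx2.9*+/+ libraries. *Slc6a4* had 35, 25 and 10 reads against 20, 39 and 51. The reads of both genes thus overlapped, while their normalized counts did not. *Fev* (-0.61) and *Gata2* (0.02) were not called. The summed level of the 5 genes ranged from 125 to 131 normalized counts in *Nkx2.9*LacZ/LacZ, from 125 to 179 in *Nkx2.9*LacZ/+ and from 136 to 207 in *Nkx2.9*+/+ libraries, and 0 of the 5 were at 0 in every library. *Gata2*, which midbrain GABAergic neurons also express, made up most of this sum with a mean of 97.6 normalized counts. The part of the caudal extent of the dissection in the *En1* and *En2* values was not tested. Of the 8 midbrain markers, 1 (*Pax7*) had an unadjusted limma p under 0.05 between homozygous and wild-type libraries, where 2.6% of all genes did (log2 fold change -0.63, limma p = 0.0119, exact permutation p = 0.2, adjusted limma p = 1.00). Its values overlapped, with 229 normalized counts in column 2 and 221 in column 9, and 4 of the 8 markers had a fold change below 0.

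Of the other cell types that the dissected tissue could hold, the meningeal list had 1 of 5 tested genes with an unadjusted limma p under 0.05 between *Nkx2.9*LacZ/LacZ and *Nkx2.9*+/+ midbrain (2.6% of all genes), *Foxc1* (log2 fold change -0.99, limma p = 0.00677, exact permutation p = 0.1, adjusted limma p = 1.00). Of the 5, 4 had a fold change below 0, and 2 (*Foxc1* and *Col1a1*, at -0.42) had values without overlap (9.52% of all genes). The summed level of this list (7 genes) ranged from 185 to 284 normalized counts in *Nkx2.9*LacZ/LacZ, from 197 to 226 in *Nkx2.9*LacZ/+ and from 243 to 344 in *Nkx2.9*+/+ libraries, and its part in the values of the boundary genes was not tested. The cerebellar, locus coeruleus, forebrain, blood and choroid plexus lists had 0 genes with an unadjusted limma p under 0.05 in this comparison. Of their tested genes, 1 had values without overlap, *Barhl1* (log2 fold change -0.30, limma p = 0.0621, exact permutation p = 0.1). All 5 tested blood genes had a fold change below 0 (lowest -0.47), and *Ttr* of the choroid plexus list had -1.21 (limma p = 0.0748, exact permutation p = 0.2).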

How the data were processed

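Per gene and library, the signal was deposited by the authors as a normalized count. According to the methods, ribosomal RNA was depleted, 100-bp paired ends were aligned with Hisat2 to GRCm38/mm10, counted with featureCounts and divided by DESeq2 size factors. Versions, annotation release and strand setting are not given in the sources used here. The labels describe a protocol for mRNA, and the series title names cortex where labels and methods name midbrain. Columns carry the genotype but no replicate number. The 3 deposited tables of DESeq2 comparisons (fold changes and p-values) were not used. All 210686 values above 0 were whole multiples of 1 read (100%, within 0.001 reads).

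Values were compared with limma 3.58.1 (trend; R 4.3.3) on log2(normalized count + 1), all 9 libraries fitted together without covariates, two-sided, with Benjamini-Hochberg adjustment over 16993 genes with a mean of at least 5, and genes below it from a fit without a minimum. edgeR 4.0.16 and DESeq2 1.42.0 were run on recovered reads. Scripts were tested on simulated data. Per the methods, experiments drew on embryos of very few litters, so libraries may share a litter and p-values measure the spread between these libraries. Positions are from GENCODE M21. Named genes were the 10 boundary genes, pathway-list genes with an unadjusted p under 0.05 or chosen by role, the 3 genes most like *En1* and *En2*, and *Nkx2-9* and *Xist*. Boundary genes and lists were chosen with earlier results of these data known. *Tph2*, *Slc6a4*, *Fev*, *Gata2*, *Pax7*, *Dlx1*, *Dlx2*, *Six3*, *Emx2*, *Barhl2*, *Lhx2*, *Foxc1*, *Col1a1*, *Ttr*, *Ddx3y*, *Eif2s3y*, *Kdm5d*, *Uty* and the 6 cerebellar genes come from the marker lists, *Irx1* and *Irx3* from the pathway lists. All of these are outside the rule for named genes and were chosen with their values in view. CCAAT and CACGTG were chosen after reading the sequences.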

Additional observations from a re-analysis of the deposited data

How the results depend on the processing

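Between homozygous and wild type, the number of boundary genes with an unadjusted p under 0.05 was 1. It was 2 with a pseudocount of 5, with edgeR and with DESeq2, 3 without a minimum count and with only the libraries of the 2 genotypes, and 0 after upper-quartile scaling and with log2 *Xist* as a covariate, and leaving out a library gave 0 to 3. Among all genes, the share under 0.05 was 2.6% and, in the same settings, 1.86% (DESeq2) to 3.78% (2 genotypes alone) and 1.67% to 4.87% on leaving out a library. Without a minimum all 10 genes were tested rather than 7, but the 3 called were *En1*, *En2* and *Pax8*, all among the 7. The number was 0 between heterozygous and wild type, where leaving out a library gave 0 to 2 (2 without column 4; all genes 2.21% to 5.49%), and 0 between homozygous and heterozygous, where DESeq2 gave 1 (all genes 1.9%) and leaving out a library 0 to 3 (3 without column 6, where 4.04% of all genes were called; all genes 1.72% to 4.35%). For pathway-list genes, the number between homozygous and wild type was 0 and became 1 with a pseudocount of 5, no minimum, edgeR, DESeq2, the 2 genotypes alone or *Xist*, 2 with log2 reads as a covariate (2.65% of all genes), and 0 to 2 on leaving out a library. Between heterozygous and wild type it was 1 and became 3 without a minimum (3.59% of all genes), 2 with edgeR (2.19%) and 1 to 9 on leaving out a library (2.21% to 5.49%). Between homozygous and heterozygous it was 0 and became 1 with a pseudocount of 5 or the 2 genotypes alone (2.71% of all genes in both), 2 with upper-quartile scaling (2.25%) or log2 reads (3.17%), and 0 to 3 on leaving out a library (1.72% to 4.35%).

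Signs that turned belonged to uncalled differences. Between homozygous and wild type, *Gbx2* had a log2 fold change of -0.13 with *Xist*, and on leaving out a library *Gbx2* ranged from -0.11 to 0.77, *Pax5* from -0.10 to 0.20 and *Fgf18* from -0.54 to 0.19. Between heterozygous and wild type, *Pax5* was -0.048 with *Xist* and *Gbx2* 0.24 in edgeR, and leaving out a library gave -0.54 to 0.080 for *En1*, -0.75 to 0.092 for *Pax8*, -0.24 to 0.17 for *Pax5*, -2.03 to 0.63 for *Gbx2* and -0.19 to 0.022 for *Spry1*. Between homozygous and heterozygous, *En2* was 0.060 with upper-quartile scaling, 0.095 with *Xist* and 0.025 with log2 reads, *Pax5* -0.0041 in edgeR and -0.021 in DESeq2, and *Fgf18* -0.026 with log2 reads, and leaving out a library gave -0.24 to 0.26 for *En2*, -0.15 to 0.26 for *Pax5*, -0.23 to 0.48 for *Fgf18* and -0.32 to 2.35 for *Gbx2*. *En1* and *En2* remained lower in homozygous than in wild type under every alternative run, from -0.73 to -0.44 and from -0.55 to -0.32. As their values did not overlap between these genotypes, leaving out a library could not have turned the sign. Over all genes, 441 were called at an unadjusted p under 0.05 between homozygous and wild type, 263 with a minimum of 20 and 1135 without a minimum, and between homozygous and heterozygous upper-quartile scaling turned 253 higher and 196 lower into 333 and 50 with a median of 0.13. The causes were not tested. No paired analysis was possible because the columns carry no replicate number. Depth limits *Fgf8*, *Fgf17* and *Pax2* most.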
